A study of Mus musculus with 14 samples.

Results

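The distal end of mouse chromosome 8, from 120 Mb in the mm10 build to the end of the chromosome, carries a dense run of unrelated genes. In the hippocampus of 7 mice labelled LPAR2-/- and 7 wild-type (WT) mice, 93 of these genes were measured, out of 24421 genes in the count table. The members were chosen by position, as genes whose midpoint lies in this stretch, and by depth, with 10 or more counts in at least 7 mice. The stretch itself was chosen with the results of these libraries known, so counts of changed members are given as a description beside the same counts over all genes. Of 129 genes of the stretch that were considered, 36 did not reach the depth, and 11 of these had no count in any mouse. All 93 members entered the test. Of these, 92 had at least 10 counts in every mouse, and the remaining one, Fam89a, had 8 to 43 counts.

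All mice were untreated males, by their labels of the strain 129.C57Bl6 and aged 10 to 12 weeks, whereas the series description speaks of middle-aged to aged animals. The LPAR2-/- mice lack part of an exon of Lpar2, the gene of a receptor for lysophosphatidic acid, and according to the study's methods came from a homozygous colony bred in parallel to the control colony. Controls were of a background that mixed C57BL/6 with 129/SvJ. Alleles of the strain background that were fixed in either colony, including alleles linked to Lpar2, and the deletion itself cannot be told apart in this design. RNA was depleted of ribosomal RNA and sequenced, and 15434620 to 23258949 reads per mouse were counted on genes.

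Genes of this stretch serve general tasks of the cell, with no common pathway. Cog2, Trappc2l, Exoc8 and Chmp1a act in vesicle traffic, Cox4i1, Tomm20 and Spg7 in mitochondria, and Nrp1, Pard3, Disc1, Tsnax and Tubb3 are known from axon guidance, cell polarity and the neuronal cytoskeleton. Neighbouring genes on a chromosome may share a bidirectional promoter, and genes of a linked stretch tend to be inherited together.

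Lpar2 served as a check of the labels. Its gene lies at chr8:69822565-69831102, 50.2 Mb before the first member. Lpar2 had 144 to 234 counts in the mice labelled LPAR2-/- and 27 to 66 counts in WT mice. The log2 difference was 2.01 ± 0.16 (SE, n = 7 per genotype, edgeR adjusted p = 8.22e-07), hence higher in the libraries labelled LPAR2-/-. Counts per gene cannot show whether the deleted part of the exon is missing, so all directions below refer to mice as labelled. Markers of dentate granule cells, CA1, CA3, microglia, endothelium and astrocytes were present in every mouse, and none of these markers passed the test. The markers of choroid plexus summed to 280 CPM (read counts scaled to library size) in mouse LPAR2-/- 2 and to 24.4 to 48.6 CPM in the other mice, those of oligodendrocytes to 3442 CPM in mouse LPAR2-/- 3 and to 842 to 1792 CPM in the others, and those of CA1 to 328 CPM in mouse WT 2 and to 82.0 to 168 CPM in the others. Thalamus markers summed to 30.8 to 63.7 CPM in mice labelled LPAR2-/- and to 34.9 to 63.1 CPM in WT mice, striatum markers to 34.1 to 41.3 and 29.9 to 37.6 CPM, and cortex markers to 44.2 to 62.5 and 53.7 to 75.1 CPM. The 4 haemoglobin genes were at 0 in all libraries. In bulk tissue, fewer cells of a type and less RNA per cell cannot be told apart.

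Of the 93 members, 19 differed between the genotypes at an adjusted p under 0.05 (20.4%), compared with 6.77% of all 14897 genes tested. Of these, 10 were higher and 9 were lower in mice labelled LPAR2-/-, next to 3.32% and 3.46% of all genes in these directions. With upper quartile scaling in place of TMM, the split was 12 higher and 6 lower, while 62% of all called genes were higher, compared with 49% under TMM. Without one of the mice the count lay between 10 and 22, with 22 without mouse WT 1, when 9.26% of all genes passed. It fell to 12 without mouse LPAR2-/- 5 or WT 3 and to 10 without mouse WT 5, when 4.77%, 4.89% and 3.98% of all genes passed. Without the mice that stood apart in tissue markers, 16 members passed without LPAR2-/- 2 (choroid plexus), 15 without LPAR2-/- 3 (oligodendrocytes) and 12 without WT 2 (CA1), next to 5.16%, 7.43% and 3.79% of all genes. The changes were small. The absolute log2 difference of the 19 genes ranged from 0.15 to 0.86 with a median of 0.37. Over all members the median was 0.13, and over all genes tested 0.087, at the same median SE of 0.071. An unadjusted p under 0.05 was found in 44.1% of members and in 22.4% of all genes.

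**Figure D1:**
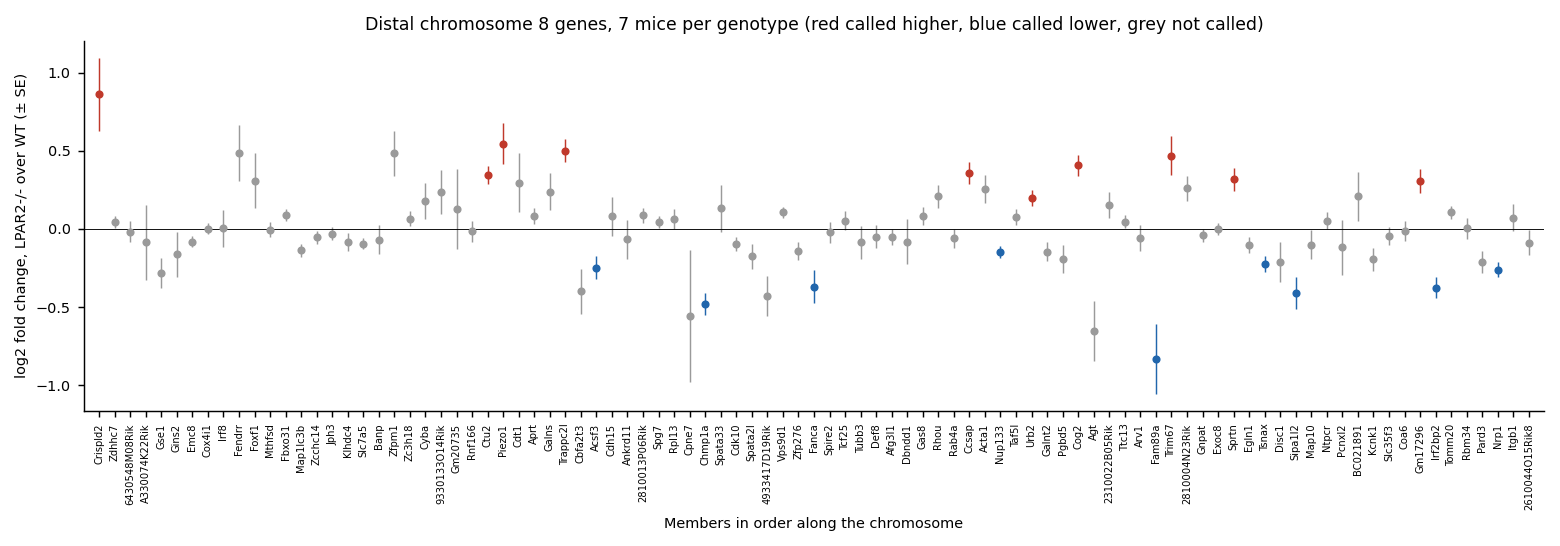
Log2 fold change of the 93 distal chromosome 8 genes (mean ± SE from edgeR, 7 mice labelled LPAR2-/- against 7 WT mice) in their order on the chromosome. The 10 red genes were called higher and the 9 blue genes lower, and the first 4 called genes are higher and the next 3 lower.

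The 19 genes were scattered within the stretch. None of 10 genes in the second Mb of the stretch was called. In the third Mb 4 of 16 genes were called (25%), in the fourth 4 of 24 (16.7%) and in the fifth 5 of 16 (31.2%), next to 6.77% of all genes. From 125 to 126 Mb and from 126 to 127 Mb 2 of 7 were called each, and from 128 to 129 Mb 1 of 2. The single genes from 127 to 128 Mb and from 129 to 130 Mb were not called. Crispld2, which is the first member inside the limit at 120 Mb, was the only gene called in the first Mb, out of 9. The 5 genes just outside that limit, Atp2c2, Tldc1, Cotl1, Klhl36 and Usp10, were not called, with log2 differences from -0.14 to 0.24. The distal genes were separated from the surroundings of Lpar2 by a stretch with few called genes. From 100 to 120 Mb, 2 of 157 genes were called (1.27%). Near Lpar2, from 60 to 80 Mb, 41 of 155 genes were called (26.5%), and from 80 to 90 Mb 23 of 91 (25.3%). Shares also varied elsewhere on the chromosome, with 10 of 58 genes called from 20 to 30 Mb (17.2%) and 8 of 32 from 30 to 40 Mb (25%). From 40 to 50 Mb 2 of 41 were called (4.88%), and from 90 to 100 Mb 6 of 53 (11.3%). These shares are descriptions, and the differences between the stretches were not tested.

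**Figure D2:**
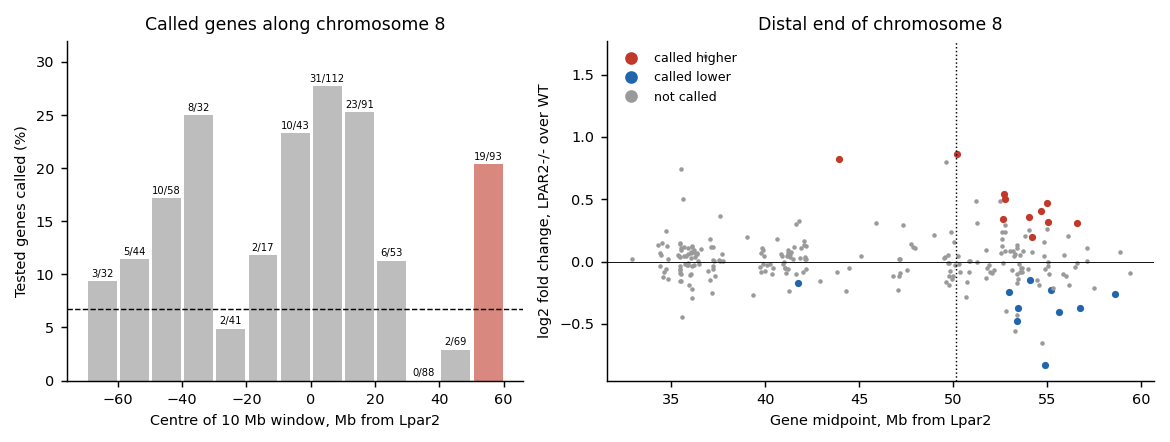
Left, percentage of tested genes called in each 10 Mb window of chromosome 8 against the distance of the window from Lpar2, with the number called and tested above each bar and the share over all genes (6.77%) as a dashed line. Right, log2 fold change of each gene from 100 Mb on against its distance from Lpar2, where called genes (red higher, blue lower) lie almost all beyond the dotted limit at 120 Mb. The last window holds 19 of 93 genes, the 2 windows before it 0 of 88 and 2 of 69.

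Of 8 genes of vesicle traffic and glycosylation 3 were called, with 2 higher and 1 lower (37.5%, next to 20.4% of all members and 6.77% of all genes). The median absolute log2 difference of the group, 0.13, was that of all members. Chmp1a, a subunit of the ESCRT-III complex of endosomal sorting (chr8:123204261-123212788, minus strand), had 46.0, 58.1 and 65.1 CPM as the lowest, median and highest value in mice labelled LPAR2-/-. WT mice had 76.2, 78.8 and 88.6 CPM. All mice labelled LPAR2-/- were lower than every WT mouse, and the decrease of 28.3% corresponds to a log2 difference of -0.48 ± 0.07 (SE, edgeR adjusted p = 0.000713). Trappc2l, a component of the TRAPP vesicle tethering complexes (chr8:122611626-122615591, plus strand), changed in the opposite direction. Its CPM were 34.6, 39.6 and 49.6 in mice labelled LPAR2-/- and 25.5, 27.7 and 31.6 in WT mice, again without overlap (log2 difference 0.50 ± 0.07, adjusted p = 0.000734). Cog2, a subunit of the conserved oligomeric Golgi complex (chr8:124520767-124552007, plus strand), was 1.33-fold higher, at 35.0, 42.1 and 48.2 against 28.8, 31.7 and 35.9 CPM. Its groups overlapped by one mouse on each side (log2 difference 0.41 ± 0.07, adjusted p = 0.00293). Exoc8, a subunit of the exocyst, had 43.6 ± 2.3 and 43.6 ± 0.9 CPM (SD, n = 7 each), and Vps9d1, Galnt2, Def8 and Klhdc4 did not pass the test.

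Of 7 genes of RNA handling and translation, 3 were called (42.9%, next to 20.4% of all members and 6.77% of all genes). Ctu2, an enzyme subunit for the thiolation of wobble uridines in tRNA (chr8:122476143-122483092, plus strand), had 21.8, 22.8 and 23.3 CPM in mice labelled LPAR2-/- and 15.9, 18.8 and 20.5 CPM in WT mice. The groups did not overlap, and the mice labelled LPAR2-/- lay within a narrow range (log2 difference 0.34 ± 0.06, adjusted p = 0.00287). Urb2, which is known from ribosome biogenesis, was 14.9% higher (19.5 ± 1.1 against 16.9 ± 0.9 CPM, adjusted p = 0.0261). Nup133, a scaffold component of the nuclear pore, was 9.7% lower (42.4 ± 2.4 against 46.9 ± 1.3 CPM, adjusted p = 0.0329). Rpl13, a protein of the large ribosomal subunit, had only 9.42 and 9.01 CPM. Reads that matched several places were not counted, and Rpl13 has processed copies elsewhere in the genome, so its level is uncertain.

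In the group of cytoskeleton, axon and polarity genes 3 of 15 were called, all 3 lower, which is 20% next to 20.4% of all members and 6.77% of all genes. A negative log2 difference was found in 10 of the 15 genes and in 49 of all 93 members. Nrp1, a coreceptor for class 3 semaphorins and VEGF (chr8:128359073-128505475, plus strand), had 119, 136 and 152 CPM in mice labelled LPAR2-/- and 150, 161 and 171 CPM in WT mice. One mouse labelled LPAR2-/- reached the lower end of the WT range (log2 difference -0.26 ± 0.05, adjusted p = 0.00455). Tsnax, the partner of the RNA-binding protein translin and upstream neighbour of Disc1 (chr8:125012997-125034192, plus strand), had 141, 157 and 177 CPM against 171, 186 and 200 CPM. The groups overlapped at their edges (log2 difference -0.22 ± 0.05, adjusted p = 0.0196). Sipa1l2, a GTPase-activating protein for Rap, was 24.7% lower (180 ± 27 against 239 ± 32 CPM, adjusted p = 0.0271). Disc1, a scaffold protein of neuronal development, was weakly expressed at 2.60 ± 0.44 against 3.04 ± 0.42 CPM and did not pass (adjusted p = 0.354). Pard3, a core protein of cell polarity, had a log2 difference of -0.21 ± 0.07 (adjusted p = 0.0808), and Tubb3, the neuronal beta tubulin, of -0.08 ± 0.11 (adjusted p = 0.687).

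Among DNA replication and repair genes 2 of 6 were called (33.3%, next to 20.4% of all members and 6.77% of all genes), in opposite directions. Sprtn, a protease that removes proteins crosslinked to DNA (chr8:124897886-124903813, plus strand), had 10.9, 12.8 and 14.5 CPM in mice labelled LPAR2-/- and 9.38, 9.90 and 10.7 CPM in WT mice. The gap between the groups was small, but they did not overlap (log2 difference 0.32 ± 0.07, adjusted p = 0.0180). Fanca, of the Fanconi anaemia core complex, was lower at 6.58 ± 1.06 against 8.48 ± 0.96 CPM (adjusted p = 0.0436).

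Of 12 transcription and chromatin genes 1 was called (8.33%, next to 6.77% of all genes). Irf2bp2, a corepressor that binds IRF2 (chr8:126588296-126593436, minus strand), had 39.1, 41.9 and 46.7 CPM in mice labelled LPAR2-/- and 44.7, 54.0 and 63.8 CPM in WT mice. Only the lowest WT mouse reached the other group (log2 difference -0.38 ± 0.07, adjusted p = 0.00326). Irf8, a transcription factor of microglia, had 4.89 CPM in both genotypes. Of 8 genes listed as channels, junction proteins and transporters, a loose group that also held Ttc13, Arv1 and Pcnxl2, 1 was called (12.5%, next to the same 6.77%). Piezo1, a mechanically gated cation channel (chr8:122481698-122551329, minus strand), had 11.3, 13.7 and 19.4 CPM against 7.97, 9.74 and 11.8 CPM. Only mice LPAR2-/- 6 and 7 lay within the WT range (log2 difference 0.55 ± 0.13, adjusted p = 0.0208). The group listed as mitochondrial was loose and also held Emc8, of the ER membrane complex, the cytosolic enzyme Aprt, and Mthfsd. Of its 9 genes 1 was called (11.1%, next to the same 6.77%). Acsf3, the mitochondrial malonyl-CoA synthetase, was lower at 14.7 ± 1.4 against 17.4 ± 1.5 CPM (adjusted p = 0.0469), and Cox4i1, a subunit of cytochrome c oxidase, had a log2 difference of 0.00 ± 0.04.

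Of 11 enzymes and signalling genes 2 were called (18.2%, next to 6.77% of all genes), in opposite directions. Trim67, a brain-enriched ubiquitin ligase, was higher (9.57 ± 2.24 against 6.95 ± 0.44 CPM, adjusted p = 0.0328), and Fam89a was lower. Fam89a (chr8:124740257-124751809, minus strand) had 0.478, 1.16 and 1.44 CPM in mice labelled LPAR2-/- and 1.47, 1.65 and 2.18 CPM in WT mice. The groups did not overlap, but the level was near the depth limit, and the values of the mice labelled LPAR2-/- spread widely (log2 difference -0.83 ± 0.22, adjusted p = 0.0347). Of 17 members in no group, 3 were called (17.6%, next to the same 6.77%), all higher. Ccsap, a protein of centrioles, cilia and the spindle (chr8:123840844-123860209, minus strand), had 71.8, 89.1 and 106 CPM against 63.7, 66.3 and 72.9 CPM, overlapping at one end only (log2 difference 0.36 ± 0.07, adjusted p = 0.00820). The predicted gene Gm17296 was higher at 10.5 ± 0.7 against 8.51 ± 0.98 CPM (adjusted p = 0.0245). Crispld2, a secreted cysteine-rich protein (chr8:119992470-120052793, plus strand), had 4.68, 7.50 and 10.8 CPM against 2.32, 3.66 and 6.19 CPM. It had the largest log2 difference of the called members, 0.86 ± 0.24, with overlap between groups (adjusted p = 0.0402).

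**Figure D3:**
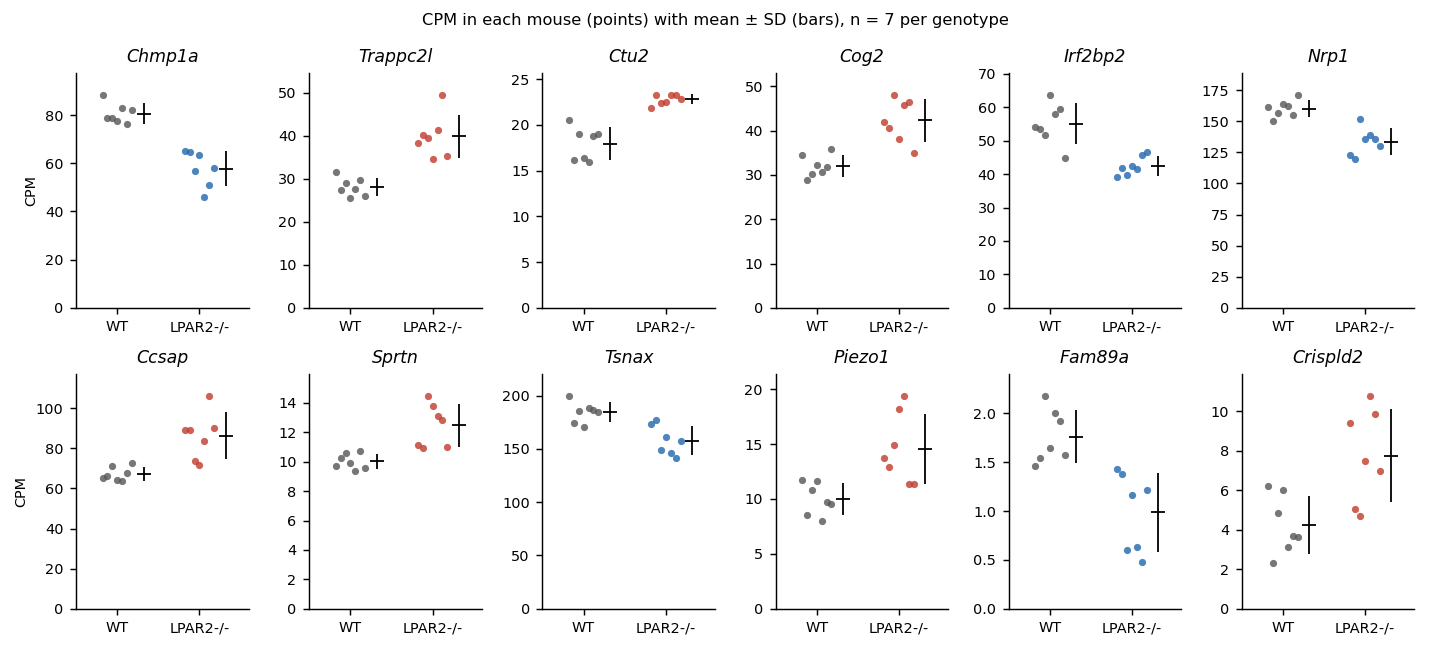
CPM in each mouse (points) with mean ± SD (bars) in 7 WT mice and 7 mice labelled LPAR2-/- for the 10 members with the smallest p, for Fam89a and for Crispld2. Chmp1a, Trappc2l, Ctu2, Sprtn and Fam89a separate the genotypes, whereas the groups of Piezo1 and Crispld2 overlap.

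In total, 5 of 93 members did not overlap between the genotypes (5.38%), namely Chmp1a, Trappc2l, Ctu2, Sprtn and Fam89a, next to 1.77% of all genes tested. Meningeal markers summed to 26.7 to 113 CPM in mice labelled LPAR2-/- and to 25.7 to 104 CPM in WT mice, and 1 of 4, Lum, was called higher. Their mean was 70.6 CPM in mice labelled LPAR2-/- and 51.0 CPM in WT mice, and the median log2 difference of the 4 markers was 0.61. Mice LPAR2-/- 4 and 5 had the highest sums (113 and 106 CPM) and the highest Piezo1 values (18.2 and 19.4 CPM), and mouse LPAR2-/- 5 also had the highest Crispld2 value (10.8 CPM). Mice LPAR2-/- 3 and 2 had the lowest sums of their genotype (26.7 and 39.4 CPM) and its lowest Crispld2 values (4.68 and 5.07 CPM). Mouse LPAR2-/- 6 had a high sum (74.0 CPM) and the next highest Crispld2 value (9.85 CPM) of its genotype, and mouse WT 4 the next highest WT sum (81.3 CPM) with 6.00 CPM of Crispld2 and 11.6 CPM of Piezo1, both near the top of the WT mice. Other values did not have this order. Mouse LPAR2-/- 3 had the next highest Piezo1 value (14.9 CPM), and mice LPAR2-/- 6 and 7 had the next highest sums (74.0 and 71.1 CPM) with the lowest Piezo1 values of their genotype (11.4 and 11.3 CPM). Mouse LPAR2-/- 4 had the median Crispld2 value (7.50 CPM). Mouse WT 2 had the highest sum of the WT mice (104 CPM) and the lowest Crispld2 value of all mice (2.32 CPM). The highest WT values of Crispld2 and Piezo1 (6.19 and 11.8 CPM) were those of mouse WT 1. Its sum of meningeal markers lay below the WT mean of 51.0 CPM. The part of these cells in the levels of Crispld2 and Piezo1 was not tested.

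The mice differed in how many of the called genes set them apart. The 19 genes were called from these same mice, so values mostly outside the other range follow from that choice, and the numbers only compare the mice. Mouse LPAR2-/- 5 was outside the WT range in all 19 genes, whereas mouse LPAR2-/- 7 was inside it in 7. WT mice were inside the range of the other genotype in 1 to 6 genes. The CPM of all 93 members summed to 5992 to 6346 in mice labelled LPAR2-/- and to 6360 to 6568 in WT mice. This sum is dominated by abundant genes, and 44 members had a positive and 49 a negative log2 difference.

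**Figure D4:**
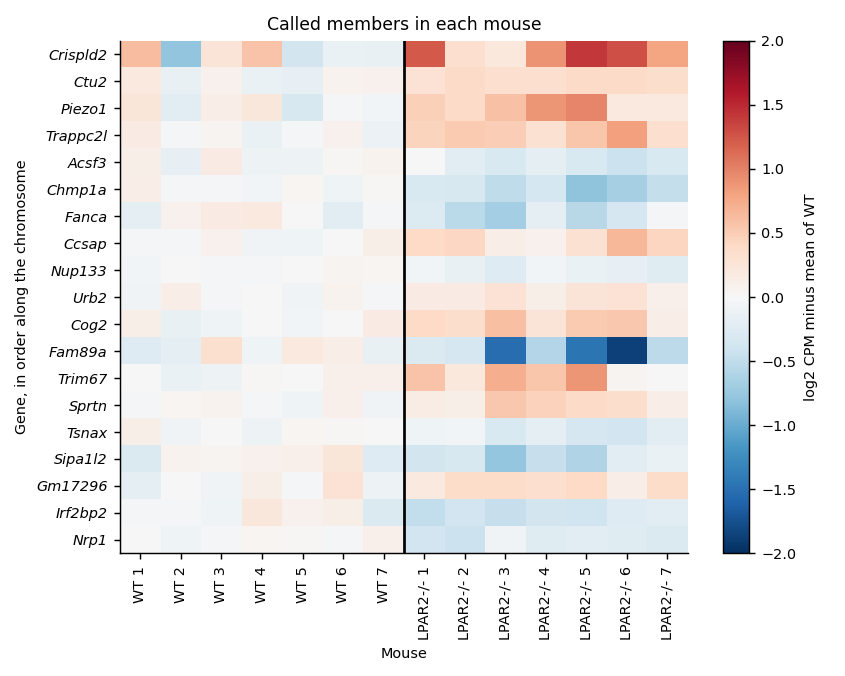
Log2 CPM of the 19 called members in each mouse minus the mean of the WT mice, with 7 WT mice on the left and 7 mice labelled LPAR2-/- on the right, in the order of the genes on the chromosome. Red is higher and blue lower than the WT mean, and Fam89a shows the lowest values in mice LPAR2-/- 3, 5 and 6.

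The stability of the calls differed between the genes. Chmp1a, Trappc2l, Ctu2, Cog2, Irf2bp2, Nrp1, Ccsap, Sprtn, Tsnax and Piezo1 passed in all 14 fits that left out 1 mouse, with adjusted p of at most 0.0495, and in all 9 other fits across all genes. Gm17296 lost the call without mouse WT 2, WT 3 or WT 5 (adjusted p up to 0.0529), and Urb2 without LPAR2-/- 5, LPAR2-/- 6, WT 3 or WT 5 (up to 0.0608). Sipa1l2 and Fam89a passed in 6 of 14 fits (adjusted p up to 0.0589 and 0.0727), Trim67 in 5 (up to 0.0750), Nup133, Crispld2 and Fanca in 4 (up to 0.0686, 0.0872 and 0.0895) and Acsf3 in 2 (up to 0.0949). Of the 9 other fits, with other tests, scalings, filters or the replicate block, Fanca passed in 4 (adjusted p up to 0.0896), Nup133 in 5 (up to 0.0914) and Urb2, Trim67 and Acsf3 in 6 (up to 0.0740, 0.0940 and 0.0789). Gm17296, Sipa1l2 and Crispld2 passed in 8 of 9 (up to 0.0734, 0.0663 and 0.0538) and Fam89a in 7 of 8 (up to 0.0993).

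The 5 largest differences among members not called are given next, and 3 of these calls depended on the test. Agt, which encodes angiotensinogen and is made by astrocytes in brain, had 7.94, 13.2 and 22.1 CPM in mice labelled LPAR2-/- and 18.6, 21.4 and 28.3 CPM in WT mice (log2 difference -0.65 ± 0.19, edgeR adjusted p = 0.0550). Agt passed in 4 of 9 other fits, with DESeq2 (adjusted p = 0.00794), with limma on the normalized values at both pseudocounts (0.0458 and 0.0473) and with the replicate block (0.0362). Cpne7, a calcium-dependent membrane-binding copine, ranged from 36.9 to 249 CPM and from 55.9 to 316 CPM, and its log2 difference of -0.55 ± 0.42 was not larger than this spread (adjusted p = 0.472). The long non-coding RNA Fendrr had a log2 difference of 0.49 ± 0.18 (adjusted p = 0.118), Zfpm1, a cofactor of GATA factors, of 0.48 ± 0.14 (adjusted p = 0.0567) and 4933417D19Rik of -0.43 ± 0.13 (adjusted p = 0.0564). Zfpm1 passed with DESeq2 (adjusted p = 0.0184), and 4933417D19Rik with DESeq2 (0.0237) and both limma fits (0.0437 and 0.0449). The most abundant members per kilobase of exon were Cox4i1, Pgbd5, Tcf25, Cpne7 and Tubb3, with 393, 167, 135, 91.8 and 80.7 CPM per kilobase in WT mice and 393, 147, 140, 62.4 and 76.0 in mice labelled LPAR2-/-. None of these 5 abundant genes was called.

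By the gene ends of the count table, 9 pairs of members were arranged head to head, with start sites at most 1000 bp apart on opposite strands. By the RefSeq starts of the members with a matched promoter there were 7 such pairs, 6 of them among the 9. The additional pair was Taf5l and Urb2, with starts 100 bp apart and log2 differences of 0.08 ± 0.05 (not called) and 0.20 ± 0.05 (called higher). In 4 of the 9 pairs exactly 1 gene was called, and in none of them both. The ratio of the plus-strand to the minus-strand gene within a mouse, in which library scaling cancels, is given as a description without a test, because the pairs were examined after the values of their genes had been seen. Sprtn over Exoc8, 181 bp apart, was 0.258 to 0.333 in mice labelled LPAR2-/- and 0.212 to 0.249 in WT mice, and this was the only pair of the 9 whose ratios did not overlap between the genotypes. Exoc8 itself had a log2 difference of 0.00 ± 0.04. Spata33 over Chmp1a, 70 bp apart, was 0.0103 to 0.0183 and 0.00752 to 0.0110, with Spata33 itself below 1 CPM on average. Ctu2 over Rnf166, 79 bp apart, was 0.634 to 0.821 and 0.469 to 0.717. The ranges of both pairs overlapped at one end. Trappc2l over Galns, 139 bp apart, overlapped broadly at 1.07 to 2.05 and 1.12 to 1.39. Galns, a lysosomal sulfatase, had a log2 difference of 0.24 ± 0.12 in the direction of Trappc2l and was not called (adjusted p = 0.253). In the other 5 pairs no gene was called. Gnpat over 2810004N23Rik, 4 bp apart, was 3.59 to 4.90 and 4.81 to 5.88, and Zfp276 over Vps9d1, 20 bp apart, was 0.300 to 0.394 and 0.365 to 0.482. The mean log2 ratios of Cox4i1 over Emc8, 2810013P06Rik over Ankrd11 and Arv1 over Ttc13 differed by 0.08, 0.18 and -0.10 between the genotypes, each with overlapping ranges.

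**Figure D5:**
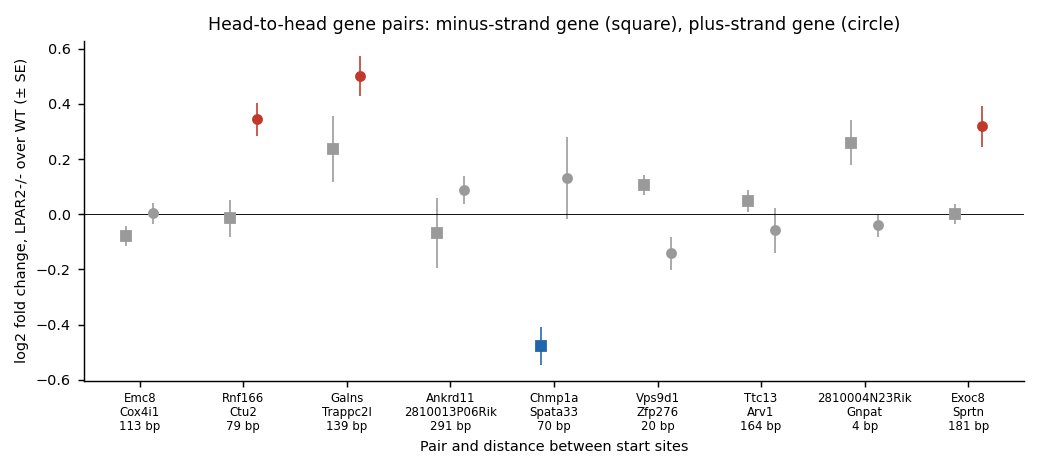
Log2 fold change (± SE, 7 mice labelled LPAR2-/- against 7 WT mice) of both genes of the 9 head-to-head pairs, with the minus-strand gene as a square, the plus-strand gene as a circle and the distance between start sites below. Red and blue genes were called higher and lower, and in none of these 9 pairs were both genes called.

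The promoters of the called genes of these 4 pairs are shown because by the ends in the count table each has the start of a neighbour on the other strand close by. For Trappc2l this rests on those ends alone, since no RefSeq promoter was matched for Galns. The RefSeq sequences (GRCm38.p6, the C57BL/6J reference and not the alleles of these mice) run 5′ to 3′ on the strand of the gene, from 250 bases before to 50 bases after the RefSeq start. Capitals mark the GC box GGGCGG, the CCAAT box CCAAT and the TATA box TATAAA on either strand. The Ctu2 window is chr8:122475893-122476192, the Trappc2l window chr8:122611376-122611675, the Chmp1a window chr8:123212739-123213038 (minus strand) and the Sprtn window chr8:124897644-124897943.
Ctu2: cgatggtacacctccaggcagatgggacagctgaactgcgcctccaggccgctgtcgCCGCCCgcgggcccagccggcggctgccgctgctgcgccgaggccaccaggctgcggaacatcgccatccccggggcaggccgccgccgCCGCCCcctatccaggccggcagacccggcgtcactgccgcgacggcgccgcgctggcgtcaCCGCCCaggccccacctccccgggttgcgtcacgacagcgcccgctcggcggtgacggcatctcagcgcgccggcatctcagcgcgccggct
Trappc2l: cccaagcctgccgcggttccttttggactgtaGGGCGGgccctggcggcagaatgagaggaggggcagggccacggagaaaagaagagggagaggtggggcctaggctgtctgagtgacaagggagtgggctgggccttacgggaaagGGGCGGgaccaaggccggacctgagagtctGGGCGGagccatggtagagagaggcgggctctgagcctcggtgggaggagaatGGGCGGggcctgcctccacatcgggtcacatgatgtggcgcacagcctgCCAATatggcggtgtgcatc
Chmp1a: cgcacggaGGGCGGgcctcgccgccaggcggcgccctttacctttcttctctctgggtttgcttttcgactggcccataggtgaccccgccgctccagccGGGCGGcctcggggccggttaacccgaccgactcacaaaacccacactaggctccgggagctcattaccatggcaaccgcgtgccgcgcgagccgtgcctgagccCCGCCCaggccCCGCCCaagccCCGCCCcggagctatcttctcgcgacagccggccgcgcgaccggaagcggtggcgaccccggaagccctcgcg
Sprtn: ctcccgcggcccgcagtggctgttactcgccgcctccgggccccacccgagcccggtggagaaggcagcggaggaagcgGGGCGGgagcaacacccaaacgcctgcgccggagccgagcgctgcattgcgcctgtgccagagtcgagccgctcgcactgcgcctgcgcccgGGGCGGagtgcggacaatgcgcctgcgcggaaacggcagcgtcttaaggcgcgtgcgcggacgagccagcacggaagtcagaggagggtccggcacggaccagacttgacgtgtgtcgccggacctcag

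These promoters were rich in CpG and had GC boxes, 3 for Ctu2, 4 for Trappc2l, 5 for Chmp1a and 2 for Sprtn, with 44, 15, 39 and 41 CpG. A CCAAT box was found only in the Trappc2l window of these 4, and TATAAA in none. RefSeq promoters were matched for 73 of 93 members. A GC box was present in 79.5% of these, a CCAAT box in 23.3% and TATAAA in 9.59%, next to 35.7%, 37.4% and 13.6% of 32851 promoters of all genes, which include genes not expressed in hippocampus. The median CpG number was 28 in promoters of 17 called members and 29 in those of 56 members not called. GC boxes were present in 82.4% and 78.6% of these.

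Members overlapped on opposite strands in 6 places, and reads had been counted by strand. Ctu2 and Piezo1 share 1395 bp at their ends, and both were higher in mice labelled LPAR2-/-. Fanca shares 2308 bp with Zfp276, which had a log2 difference of -0.14 ± 0.06 and did not pass (adjusted p = 0.164).

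The products of many members work together with products of genes located elsewhere. Of 104 tested partner genes in 14 lists, 3 were called (2.88%), next to 6.77% of all genes, and the median log2 difference was -0.01. Of the 104 genes, 7 are on chromosome 8, outside the distal stretch. Gins4, a subunit of the GINS replication complex with the member Gins2 and one of these 7, was higher (14.02 ± 1.56 against 11.4 ± 0.5 CPM, edgeR adjusted p = 0.0170). Ndel1, a dynein regulator that binds Disc1, was lower (64.2 ± 3.2 against 71.2 ± 1.9 CPM, adjusted p = 0.0219), as was Pex7, the import receptor for enzymes of ether lipid synthesis (17.6 ± 0.6 against 19.5 ± 0.6 CPM, adjusted p = 0.0457). None of 7 further COG subunits, 8 exocyst subunits, 10 genes of semaphorin signalling, 9 Fanconi anaemia genes or 12 genes of cytochrome c oxidase was called. The same held for the lists of m-AAA protease, outer membrane import, polarity, hypoxia sensing, beta tubulins and the large amino acid transporter.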

How the data were processed

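Hippocampal RNA-seq libraries of 7 mice labelled LPAR2-/- and 7 WT mice were analysed, grouped by the labels, which name no batch. The study's methods name hippocampi as the tissue, whereas its results name the dentate gyrus. According to the study's methods and the file header, the authors trimmed reads with cutadapt 1.18, aligned them with STAR to mm10 and counted them per gene on exons of the reverse strand with featureCounts 1.6.3. The deposited counts, unnormalized, were the main data. A second deposited table holds values on another scale, obtained by dividing counts through gene length and the size factors of DESeq2 (version 1.22.2 in the submitters' processing notes). After restoring its lost decimal points, 99.92% of its values of 1 or more lay within 1% of such scaled counts. It served as an alternative in limma with the authors' filter (16370 entries). Its 14 log2 columns were not used.

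Counts were analysed with R 4.3.3 and edgeR 4.0.16. Of 24421 genes 14897 passed filterByExpr. After TMM normalization, genes were compared with the robust quasi-likelihood F test, with genotype as the only term. P-values were adjusted by Benjamini-Hochberg over all genes tested and called below 0.05. CPM refer to TMM-scaled library sizes, and SE were derived from the F statistic. Ratios within head-to-head pairs were described without a test. Alternatives used DESeq2 1.42.0, limma 3.58.1, other scalings, filters and region limits, and each mouse left out. The scripts were tested on simulated data. The total counts per mouse were 15434620 to 23258949, and SD give the spread between the mice. Only to look for repeated libraries, those of a genotype were compared pairwise, and none of 42 pairs was a copy (chi-square divided by its degrees of freedom at least 3.35).

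The members and all gene lists were chosen with earlier results of these data known. Named are the called members, the 5 largest differences not called, the 5 highest CPM per kilobase, called partner genes and Lpar2. Lowest, median and highest values are given for the 10 smallest p and for non-overlapping members, and additionally for Crispld2 and Agt, chosen after their values were seen. The examples in the functional groups were likewise partly chosen after their values were seen. These groups were broad, and some genes have only a loose link to the name of their group. A pair of genes in the stretch was left out by the rule and is not reported here.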

Additional observations from a re-analysis of the deposited data

Results flagged for a closer look

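In 58 groups of 7 mice (29 named genes, both genotypes) the highest and lowest values were compared with the rest by Dixon's criterion, which chance exceeds in about 1 of 20 groups. One value stood apart. Pgbd5, a gene derived from a transposase, had 557 CPM in mouse WT 6, compared with 476 CPM in the next WT mouse, and the gap was 0.69 of the whole range of the WT mice. Pgbd5 was not called (log2 difference -0.19 ± 0.09, edgeR adjusted p = 0.220), and its adjusted p stayed between 0.142 and 0.365 when any 1 mouse was left out.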

How the results depend on the processing

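The count of 19 called members (10 higher, 9 lower) was 26 with DESeq2 (12 and 14), which included all 19 and called 9.35% of all genes. Under other scalings, filters or limma on the normalized values it was 16 to 19, next to 4.27% to 6.99% of all genes. With the region limit moved 2 Mb outwards it was 19 of 109 genes (17.4%). With the limit moved 2 Mb inwards it was 18 of 74 (24.3%), both next to 6.77% of all genes. At an adjusted p under 0.01, 7 members remained, 4 higher and 3 lower (7.53%, next to 1.66% of all genes). Without one of the mice the count ranged from 10 to 22, with 6 to 11 higher and 4 to 11 lower, next to 3.79% to 9.26% of all genes. The cause was not tested. Correlations of same-numbered mice lay between -0.33 and 0.31 with 3 of 7 above 0.1, and the mouse number was not a term of the main fit. These correlations cannot show whether same-numbered mice were handled together. With the replicate block 12 members were called, 7 higher and 5 lower, next to 3.93% of all genes. The number of members without overlap was 5 to 7 under other scalings, which were chosen after seeing the data, next to 1.73% to 1.79% of all genes. No named gene past the threshold changed its direction under any alternative. Chmp1a, Trappc2l, Ctu2, Cog2, Irf2bp2, Nrp1, Ccsap, Sprtn, Tsnax and Piezo1 passed in all 9 other fits. Depth limits Fam89a, which was not tested when 10 counts in every library were required. Mice were labelled as separate animals, and p-values test the difference between the genotypes against the variation between mice.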

Other observations

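Among genes of the stretch below the depth limit, Foxc2, a forkhead transcription factor, came closest, with at least 10 counts in 5 mice. Its counts summed to 167 over the 7 mice labelled LPAR2-/- and to 52 over the 7 WT mice, with up to 62 counts in a single mouse. Sult5a1 also had 10 counts or more in 5 mice, with sums of 32 and 68. Both were chosen after their values were seen and were not tested.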
